A study of Mus musculus with 4 samples.

Results

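The 10 genes commonly read as signs of endothelial-to-mesenchymal transition (EnMT) were followed through RFP-positive cells sorted from the left ventricle of mice on a control diet or on a diet that produces heart failure with preserved ejection fraction (HFpEF). The genes were Snai1, Snai2, Twist1, Zeb1, Zeb2, Vim, S100a4, Fn1, Cdh2 and Acta2, chosen by name, and all 10 were among the 31253 genes counted.

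In the mouse line an endothelial Cdh5-CreER driver, induced with tamoxifen at 7 weeks of age, switched on the red reporter R26-stop-tdTomato and removed floxed SR-B1 (Scarb1), so every library came from mice carrying the driver, the reporter and at least 1 floxed Scarb1 allele (S fl/+/RΔEC or S fl/fl/RΔEC). Diets lasted 20 weeks in both groups. The 2 NC libraries came from mice on a control diet with 10% of calories from fat, and the 2 HFpEF libraries from mice on a 60% fat diet plus 0.5 mg/mL L-NAME, an inhibitor of nitric oxide synthases. The labels name the diet and not the Scarb1 genotype, the study sequenced both genotypes on each diet, and the number of mice per library was not given in the sources used here. Genotype therefore may separate the 2 libraries of a group, and it was not assigned. The capillary level of Scarb1 was 119 CPM in NC library 1, 48.8 CPM in NC library 2, 111 CPM in HFpEF library 1 and 50.8 CPM in HFpEF library 2 (CPM being counts of unique molecular identifiers, UMIs, scaled to a common total for each class and library), so the spread within a group includes whatever separates these libraries. Neither tdTomato nor Cre is among the genes counted, so whether an individual cell carried the label was not tested.

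During EnMT an endothelial cell loses its junctions and takes on the programme of a fibroblast or a smooth muscle-like cell. The Snail, Twist and Zeb factors are repressors and activators that bind E-box sequences and, in embryonic heart cushions and in tumours, turn down cadherin-based junctions. Vimentin, S100A4, fibronectin, N-cadherin and α-smooth muscle actin are structural or secreted products read as the outcome. None of the 10 belongs to EnMT alone, since pericytes, smooth muscle cells, fibroblasts and leukocytes use several of them routinely.

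Of 41843 cell barcodes, 40154 passed the cell filter (more than 200 genes and under 20% mitochondrial transcripts), and 166 barcode sequences occurred in at least 2 libraries. A median cell carried 3754 (NC library 1), 4127 (NC library 2), 1736.5 (HFpEF library 1) or 1619 (HFpEF library 2) UMIs, the molecules counted in it. Clustering without the 10 genes gave 38090 ECs, of which 17067 were capillary ECs, 5322 artery ECs, 1883 vein ECs, 242 endocardial ECs, 163 proliferating ECs and 104 lymphatic ECs, beside 1625 mural cells (pericyte-like and smooth muscle-like) and 108 fibroblasts. A further 13309 ECs lay in 5 clusters with hemoglobin or cardiomyocyte genes among their leading genes. They were held apart from the capillary class, a choice made after these clusters were seen. A cluster of 3028 of these cells was headed by Gm8797, Hspa1a and Hspa1b, with Fabp3, Myl3, Actc1 and Tnni3 lower among its leading genes. It held 117, 106, 742 and 2063 cells in NC libraries 1 and 2 and HFpEF libraries 1 and 2. The share of ECs in the 5 clusters was 17.2% and 14.5% for NC but 48.9% and 43.8% for HFpEF. The median share of hemoglobin UMIs in these cells was 0% in each library, so the leading genes describe the clusters and not each cell. The capillary class itself was divided differently in the 2 groups. A pair of its clusters led by Timp4 and Aqp1 (9912 cells) held 88.2% and 84.8% of NC capillary cells, but 53.5% of those in HFpEF library 1 and 30.5% of those in HFpEF library 2. A cluster of 3502 cells led by Pth1r and Olfr1396, with a median depth of 1305 UMIs, held 4.12%, 3.86%, 26.0% and 35.9% in the order NC libraries 1 and 2 and HFpEF libraries 1 and 2. A cluster of 3318 cells led by Pgf, Cxcl10, Apln and Tnf held 7.12%, 9.58%, 18.7% and 30.8%, and a further 335 cells were led by interferon-induced genes. Fibroblasts, lymphatic and proliferating ECs fell under 20 cells in at least 1 library and have values without a test.

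The DNA ahead of the start sites of Snai1 and Acta2 is shown, the only members searched that held either motif described below. Acta2 was counted mostly in mural cells and Snai1 in every class. Snai1 (ENSMUSG00000042821) lies at chr2:167538195-167542814 on the plus strand of GRCm38, and Acta2 (ENSMUSG00000035783) at chr19:34241090-34255590 on the minus strand. The RefSeq promoters on GRCm38 were searched on both strands, over the 250 bases before each start, for the E-box that Snail factors bind (CAGGTG or its complement CACCTG) and for the CArG box, the site of serum response factor in muscle genes, with 1 mismatch allowed. Capitals mark the match, and each sequence runs 5′ to 3′ on the strand of its gene.
Snai1, chr2:167537945-167538194, plus strand: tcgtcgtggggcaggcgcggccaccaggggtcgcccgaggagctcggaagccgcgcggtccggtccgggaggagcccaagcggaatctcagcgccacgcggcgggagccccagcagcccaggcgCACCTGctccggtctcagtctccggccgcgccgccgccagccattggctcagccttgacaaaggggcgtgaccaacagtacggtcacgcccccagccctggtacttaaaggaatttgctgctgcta
Acta2, chr19:34255438-34255467, minus strand: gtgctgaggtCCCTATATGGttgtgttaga
Acta2, chr19:34255388-34255417, minus strand: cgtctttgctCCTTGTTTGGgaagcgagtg
The E-box of Snai1 began 126 bases before the start, and the matches in Acta2 began 84 and 34 bases before the RefSeq start, a stretch that Gencode counts as transcribed because it places the start farther upstream. An E-box occurred in 17.2% of 32851 promoters, a CArG match in 18.6% and at least 2 CArG matches in 2.96%. Zeb1 and Cdh2 were left out of this search. Among the other members promoters were found for 6 genes, with 9 start sites, and the windows of Vim, Zeb2, S100a4 and Twist1 held neither motif.

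Across the classes the 10 genes did not form a single endothelial or mesenchymal pattern. The plot of levels by class shows each gene in each library in CPM. Classes were built from the same cells, so their order is a description without a test.

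**Figure D1:**
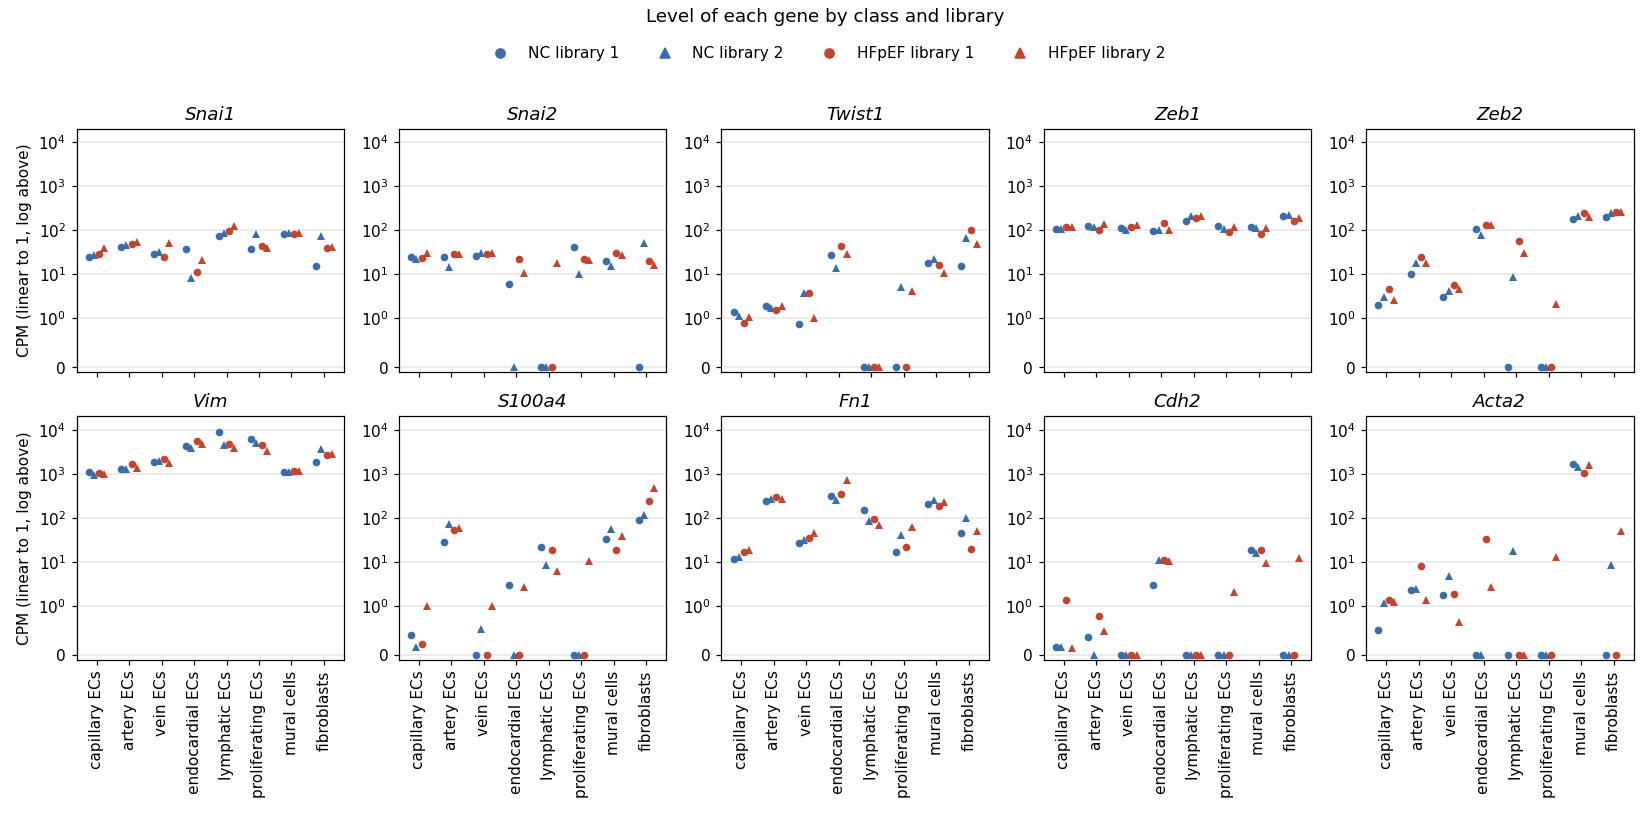
Level of each of the 10 genes (y axis, CPM, linear up to 1 and logarithmic above) in 8 cell classes (x axis), with a point per library (blue NC, red HFpEF, circles library 1, triangles library 2). Acta2 stands between 1054 and 1656 CPM in mural cells and at 7.85 CPM or less in each library of capillary, artery and vein ECs, while Zeb1 lies between 83.8 and 213 CPM in the EC classes and mural cells.

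Snai1, the founding Snail repressor, was counted in every class. Its mean over the 4 libraries was 83.9 ± 2.86 CPM (SD, n = 4) in mural cells, 47.2 ± 5.16 in artery ECs, 34.2 ± 11.6 in vein ECs and 30.2 ± 6.84 in capillary ECs. Within each library artery ECs exceeded capillary ECs by 1.34 to 1.72 times and mural cells did so by 2.14 to 3.39 times. Lymphatic ECs had the highest mean, 95.8 ± 22.9 CPM, from only 43 UMIs, and their range overlapped that of mural cells.

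Snai2, its close relative, was nearly flat over vein, capillary and artery ECs and mural cells. Their means were 28.9, 25.4, 24.1 and 23.3 CPM, and each neighbour in that order overlapped the next over the libraries. Mural clusters low in EC markers held 0.341 to 1.19 times the capillary level of their library. Means were lower in endocardial ECs (9.78 ± 9.50 CPM, from only 8 UMIs) and lymphatic ECs (4.56 ± 9.13 CPM, from 3 UMIs).

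Twist1, a basic helix-loop-helix factor of mesenchymal progenitors, was scarce in the ECs of blood vessels. It was counted 72 times in all capillary ECs (1.13 ± 0.185 CPM) and 37 times in artery ECs (1.75 ± 0.145 CPM). Mural cells held 16.9 ± 4.87 CPM, endocardial ECs 28.8 ± 12.7 CPM and fibroblasts 57.6 ± 34.9 CPM, and these 3 classes overlapped one another while each library of mural cells stood above every library of vein ECs.

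Zeb1 and Zeb2, zinc finger relatives that bind the same E-boxes, were distributed differently. Zeb1 varied little between vessel classes, with means of 122 ± 15.5 CPM in artery ECs, 115 ± 12.9 in vein ECs, 112 ± 6.45 in capillary ECs, 111 ± 23.6 in endocardial ECs and 106 ± 15.1 in mural cells, all overlapping. Mural clusters low in EC markers were lower, at 0.485 to 0.795 times the capillary level of their library. Lymphatic ECs (192 ± 24.2 CPM) and fibroblasts (194 ± 27.0 CPM) lay apart from these classes, above them. Zeb2 instead ran from 3.03 ± 1.08 CPM in capillary ECs and 4.43 ± 1.08 in vein ECs through 17.5 ± 5.83 in artery ECs to 112 ± 25.6 in endocardial ECs and 209 ± 24.5 in mural cells. Within a library the mural level of Zeb2 was 53.0 to 90.5 times the capillary level, and the artery level 4.95 to 6.86 times.

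Vim, the intermediate filament protein vimentin, was abundant in ECs and mural cells alike. Its mean was 1020 ± 57.0 CPM in capillary ECs, 1138 ± 37.1 in mural cells, 1405 ± 200.1 in artery ECs and 1917 ± 177 in vein ECs, with no overlap between neighbours in that order. The place of mural cells above capillary ECs belongs to the whole mural class, since mural clusters low in EC markers had 0.707 to 0.853 times the capillary level of their library. Endocardial ECs reached 4592 ± 688 CPM, which is 3.96 to 5.26 times the capillary level of the same library and above the level of fibroblasts (2743 ± 751 CPM).

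S100a4, a calcium-binding protein also called fibroblast-specific protein 1, separated artery ECs from the other blood vessel ECs. Artery ECs held 28.0 and 72.0 CPM under NC against 52.6 and 57.3 CPM under HFpEF. Capillary ECs held between 0.165 and 1.00 CPM, from 32 UMIs in 17067 cells, and vein ECs had 4 UMIs. The fibroblast level was the highest of these classes in each library, from 91.0 to 479 CPM. T cells, which are leukocytes and not mesenchymal, held a mean of 718 ± 276 CPM.

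The artery signal was concentrated in a single cluster of 597 artery ECs led by Clu, Cytl1, Mgp and S100a4, whose leading genes include the arterial markers Fbln5 and Gja5. Cytl1 is an endocardial marker. The cluster lay 3.69 log2 units above the median EC cluster in arterial markers and 1.43 in endocardial markers. S100a4 stood at 282, 401, 262 and 308 CPM there (NC libraries 1 and 2, then HFpEF libraries 1 and 2) against 3.89, 9.87, 14.8 and 23.3 CPM in the 4725 other artery ECs. The other members that were higher in this cluster in each library were Vim (2414 to 3954 against 1019.9 to 1295 CPM), Fn1 (606 to 817 against 198 to 235 CPM) and Zeb2 (45.2 to 87.3 against 6.75 to 13.0 CPM). The high levels were present in both NC libraries, and Cdh2 was not counted in this cluster. Acta2 stood there at 4.30, 2.14, 46.2 and 4.16 CPM, and the high library had only 9 UMIs.

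Fn1, which encodes the matrix glycoprotein fibronectin, had its lowest level in capillary ECs. The mean was 14.9 ± 3.15 CPM there, 34.7 ± 8.25 in vein ECs, 216 ± 27.6 in mural cells, 270 ± 18.8 in artery ECs and 405 ± 206 in endocardial ECs. Artery ECs held 14.8 to 21.4 times the capillary level of their own library. Mural clusters with EC markers held 11.3 to 21.1 times that level, but those low in EC markers only 5.10 to 8.52 times. The fibroblast mean, 53.8 ± 33.7 CPM, was below that of artery ECs.

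Cdh2, the gene of N-cadherin, joins pericytes to ECs and was close to the limit of counting in ECs. It had 15 UMIs in capillary ECs, 7 in artery ECs and 0 in vein ECs, against 105 in the far fewer mural cells (15.6 ± 4.44 CPM). Endocardial ECs had 10 UMIs (9.02 ± 3.99 CPM).

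Acta2, the α-smooth muscle actin of contractile cells, was the most class-bound of the 10 genes by ratio. Mural cells held 1656 and 1452 CPM under NC against 1054 and 1563 CPM under HFpEF. Capillary ECs held 0.510, 1.16, 1.36 and 1.24 CPM in the same order, from 62 UMIs in all, so that the mural level was 773 to 3249 times the capillary level. Among mural clusters low in EC markers, one led by Tagln, Myl9 and Myh11 (142 cells) reached 5939.8 to 7459.8 CPM, and one led by Kcnj8, Vtn and Abcc9 (192 cells) held 50.1 to 358 CPM. Fibroblasts yielded 13 Acta2 UMIs, 12 of them in HFpEF library 2.

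Patterns over the 24 sums of 6 classes in 4 libraries were compared by Pearson correlation of log2(CPM + 1), as a description in which points of a library share their depth. Zeb2 ran most closely with Twist1 (0.90) and Cdh2 (0.90) among the members, and Snai2 ran against it (-0.38). Among 8154 genes with a mean of at least 10 CPM, those close to Acta2 included C1s1 (0.97) and Aspn (0.96), and the closest to Zeb2 were Parm1 (0.97), Serping1 (0.96) and Ntn4 (0.95). Fn1 was closest to Slc45a4 (0.96), Clu (0.95) and Sorbs2 (0.94), and Vim to Ctsh (0.96), Vcam1 (0.95) and Casp4 (0.94). Snai1 had weaker partners, Nr4a3 (0.88), Anxa5 (0.87) and Slc12a2 (0.86), and Zeb1 the weakest, Pcyt1a (0.76), Gm49336 (0.76) and Prkar2a (0.75). The leading partners of the rest were Lactb for Snai2 (0.94), Itgav for Twist1 (0.96), Cdk19 for S100a4 (0.95) and Tbx20 for Cdh2 (0.95).

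The diet comparison asked whether the 10 genes differed between HFpEF and NC within a class. None of them passed an adjusted p of 0.05 in edgeR's quasi-likelihood test over 2 against 2 libraries, in capillary, artery, vein or endocardial ECs or in mural cells. The smallest adjusted p in each class was 0.148 (Fn1), 0.321 (Snai2), 0.280 (Fn1), 0.376 (Fn1) and 0.331 (Snai2), in that order. DESeq2, which gave an adjusted p to 5, 9, 2, 4 and 4 members, called 0 of them. It called 2.3%, 0.23%, 0.91%, 0.345% and 1.14% of the genes that it gave an adjusted p. Over all genes the test called 0.00821% in capillary ECs (1 of 12177, the detoxifying enzyme Cyp1a1, named after its value was seen), 0.258% in artery ECs, 0.721% in vein ECs, 0.137% in endocardial ECs and 0.296% in mural cells. The capillary count of 1 gene was not stable, since leaving out 1 library gave 62 to 906 genes.

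At an unadjusted p under 0.05 the members passing were 2 of 8 tested in capillary ECs, where 18.3% of all genes passed, 1 of 9 in artery ECs (13.0% of all genes), 2 of 5 in vein ECs (11.4%), 1 of 4 in endocardial ECs (7.41%) and 2 of 10 in mural cells (10.6%). The median log2 fold change of the tested members was 0.26, 0.19, 0.26 and 0.35 in capillary, artery, vein and endocardial ECs and -0.13 in mural cells, while the median of all genes tested lay between -0.02 and 0.00 in each class. In the 4 EC classes 6 of 8, 9 of 9, 5 of 5 and 4 of 4 tested members had a fold change above 0, and in mural cells 4 of 10. The share of all tested genes above 0 was not counted, and the classes come from the same libraries. Leaving out 1 library turned Vim in capillary ECs and Twist1, Zeb1, S100a4 and Acta2 in artery ECs. It also turned Snai1, Snai2 and Vim in vein ECs and Zeb1 in endocardial ECs. A member entered these counts only if it passed the filter on low counts, which left out S100a4 and Cdh2 in capillary ECs, Cdh2 in artery ECs, and 5 and 6 members in vein and endocardial ECs.

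The HFpEF libraries lay both above or both below the NC libraries for 5 of 8 tested members in capillary ECs (49.7% of all genes tested), 4 of 9 in artery ECs (44.7%), 2 of 5 in vein ECs (42.2%), 3 of 4 in endocardial ECs (38.9%) and 3 of 10 in mural cells (41.2%). They lay above for 4 members in capillary ECs (25.0% of all genes tested), 4 in artery ECs (21.7%), 2 in vein ECs (19.9%), 3 in endocardial ECs (22.0%) and 2 in mural cells (17.7%). No test was made of these counts.

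**Figure D2:**
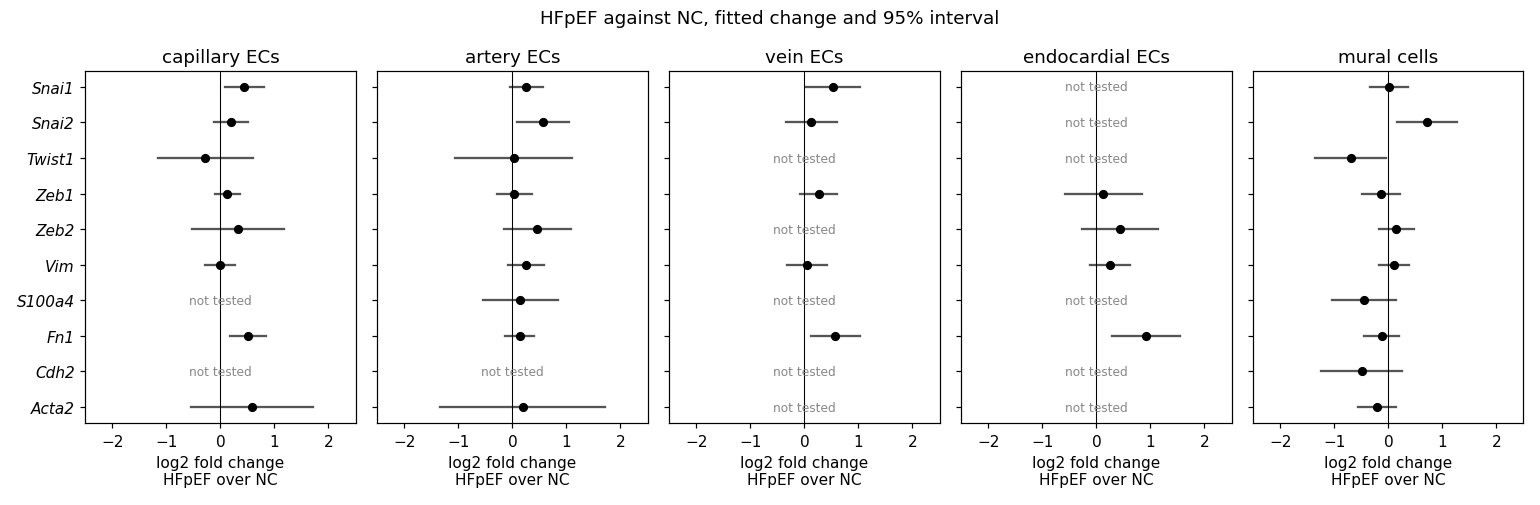
Log2 fold change of HFpEF over NC (x axis) for each of the 10 genes (rows) in the 5 classes with a test (panels), with 95% intervals from edgeR as lines and "not tested" where the filter on low counts removed the gene. Before adjustment over all genes, the intervals of Fn1 in capillary, vein and endocardial ECs lie above 0. So do those of Snai1 in capillary and vein ECs and of Snai2 in artery ECs and mural cells. The interval of Twist1 in mural cells lies below 0, and that of Vim in capillary ECs is centred near 0.

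When 1 library is left out, its group keeps a single library that is assumed to vary like the other group, so the adjusted p values without a library given below rest on the spread within the other group alone. Calls among them are given with the share of all genes called in the same fit.

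Fn1 in capillary ECs stood at 11.5 and 13.2 CPM under NC against 16.6 and 18.4 CPM under HFpEF, so the groups did not overlap. The log2 fold change of Fn1 was 0.51 (SE 0.14, 95% interval 0.18 to 0.84, adjusted p = 0.148 with edgeR). Without HFpEF library 1 it was 0.56, and with no filter on low counts 0.50 with an adjusted p of 0.0478 with edgeR (5.72% of all genes called). A gate on each cell in place of clusters gave -0.02, but over a different set of cells. That gate left artery, vein and endocardial ECs under 20 cells in a library, and how many artery ECs its capillary class took in was not counted.

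Fits over other sets of capillary clusters gave other Fn1 values, and the part of the cluster shares in the Fn1 change was not tested. Within the clusters led by Timp4 and Aqp1 the levels were 11.7 and 12.3 CPM under NC against 13.6 and 15.1 CPM under HFpEF, a log2 fold change of 0.25 (adjusted p = 0.509 with edgeR). The cluster led by Pth1r, which made up more of the HFpEF cells, had 26.3, 42.4, 25.8 and 31.6 CPM, with the groups overlapping. In the ECs of the clusters held apart from the class, the levels were 51.4 and 31.1 CPM under NC against 26.2 and 33.9 CPM under HFpEF, which overlapped. The fit with these cells added gave 0.59 (adjusted p = 0.102 with edgeR).

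The other vessels gave Fn1 values in the same direction at different sizes. Vein ECs held 27.2 and 31.0 CPM under NC against 34.4 and 46.3 CPM under HFpEF (log2 fold change 0.57, interval 0.13 to 1.02, adjusted p = 0.280 with edgeR). Endocardial ECs held 317 and 247 CPM under NC against 348 and 707 CPM under HFpEF (0.91, interval 0.28 to 1.55, adjusted p = 0.376 with edgeR). The endocardial groups did not overlap, but the HFpEF libraries lay farther from each other than HFpEF library 1 lay from NC, and without that library, with the single HFpEF library at 707 CPM left, the value was 1.26 with an adjusted p of 0.0134 (0.933% of all genes called). Artery ECs, with far more Fn1, held 246, 268, 292 and 273 CPM and a log2 fold change of 0.14 (interval -0.13 to 0.41).

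In mural cells the Fn1 groups overlapped, at 208 and 249 CPM under NC against 184 and 222 CPM under HFpEF (log2 fold change -0.12, interval -0.44 to 0.19). The sign was not stable, with 0.31 in mural clusters low in EC markers, 0.12 from thinned cells and 0.0070 without NC library 2. A test of the difference itself gave mural minus capillary -0.61 (SE 0.15, interval -0.92 to -0.31, adjusted p = 0.0582 with edgeR), in a comparison that called 0.539% of all genes. RLE size factors in place of TMM gave -0.63 with an adjusted p of 0.0423 (0.601% called), and the adjusted p without 1 library lay between 0.0613 and 0.436. Artery minus capillary was -0.42 (interval -0.69 to -0.16, adjusted p = 0.351), where 0.26% of all genes were called, and without HFpEF library 1 it was -0.48 with an adjusted p of 0.0372 (1.32% called). Vein minus capillary was 0.04 (interval -0.42 to 0.49), where 0.0651% of all genes were called.

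**Figure D3:**
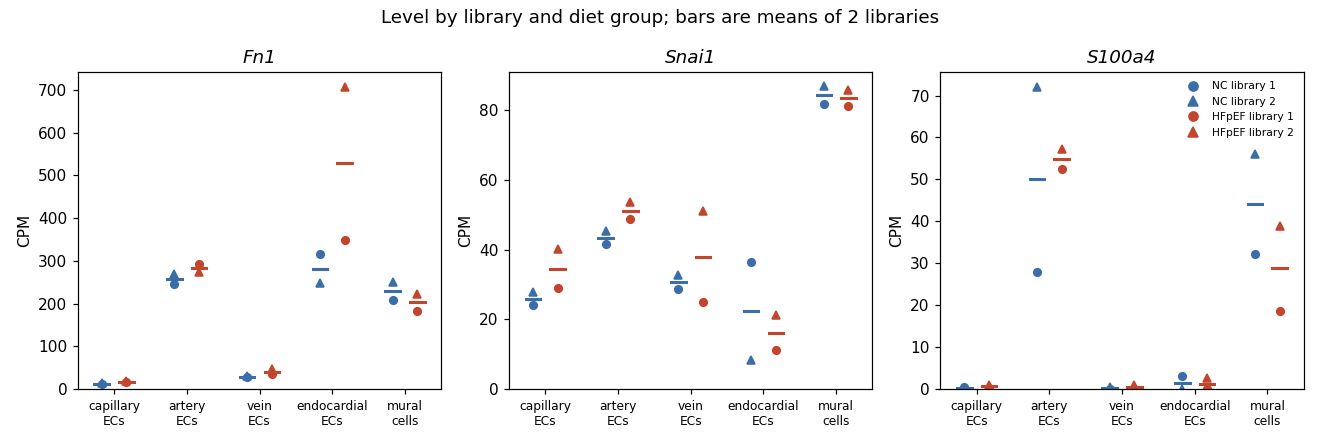
Level (y axis, CPM, starting at 0) of Fn1, Snai1 and S100a4 in 5 classes (x axis), with a point per library (blue NC, red HFpEF, circles library 1, triangles library 2) and bars at the mean of 2 libraries. The endocardial Fn1 mean of HFpEF rests on a library at 707 CPM, and the artery S100a4 level of NC spans 28.0 to 72.0 CPM.

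Snai1 in capillary ECs stood at 24.1 and 27.7 CPM under NC against 29.1 and 40.0 CPM under HFpEF. The groups did not overlap, yet HFpEF library 1 lay closer to NC than to HFpEF library 2. The log2 fold change was 0.44 (SE 0.15, interval 0.08 to 0.80, adjusted p = 0.201 with edgeR). Without HFpEF library 1 it was 0.61 with an adjusted p of 0.0127 (7.27% of all genes called), without HFpEF library 2 it was 0.17 with an adjusted p of 0.758 (1.87% called), and with no filter on low counts 0.43 with an adjusted p of 0.0384 (5.72% called). In the clusters led by Timp4 and Aqp1 it was 0.46 with an adjusted p of 0.218, while the cluster led by Pgf and Cxcl10 had 56.2 and 55.8 CPM under NC against 49.5 and 51.3 CPM under HFpEF. HFpEF library 2 was likewise the highest in vein ECs (28.6, 32.6, 24.8 and 51.0 CPM), in artery ECs (41.5, 45.3, 48.7 and 53.6 CPM) and in the ECs led by other genes (14.9, 22.1, 28.2 and 39.9 CPM). That library held the most cells (20882 after the filter) and the lowest median depth, and the part of either in the Snai1 level was not tested. The vein groups overlapped in Snai1, with HFpEF library 1 the lowest (log2 fold change 0.53, interval 0.03 to 1.04, adjusted p = 0.406 with edgeR). Mural cells, from the same libraries, held 81.8, 87.0, 81.2 and 85.7 CPM of Snai1, a log2 fold change of 0.02 (interval -0.33 to 0.37).

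Snai2 had its larger fitted changes outside the capillaries. Artery ECs held 24.1 and 14.9 CPM under NC against 28.3 and 29.0 CPM under HFpEF (log2 fold change 0.57, interval 0.09 to 1.05, adjusted p = 0.321 with edgeR). Mural cells held 20.3 and 15.3 CPM under NC against 30.6 and 27.1 CPM under HFpEF (0.72, interval 0.16 to 1.28, adjusted p = 0.331 with edgeR). In neither class did the groups overlap. In capillary ECs the 4 values were 25.0, 22.7, 23.9 and 30.0 CPM, and the groups overlapped.

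Twist1 was the member with the largest negative fitted change. Mural cells held 17.9 and 22.7 CPM under NC against 16.0 and 10.9 CPM under HFpEF, a log2 fold change of -0.70 (interval -1.36 to -0.04, adjusted p = 0.440 with edgeR). The groups did not overlap, and the 4 values rest on 30, 55, 12 and 25 UMIs. Zeb1 and Zeb2 had fitted changes between -0.14 and 0.46 in the classes tested. Zeb1 in capillary ECs stood at 109 and 105 CPM under NC against 117 and 119 CPM under HFpEF (0.13, interval -0.10 to 0.36). Zeb2 in mural cells stood at 185 and 214 CPM under NC against 241 and 196 CPM under HFpEF (0.14, interval -0.18 to 0.47).

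Vim in capillary ECs stood at 1087 and 953 CPM under NC against 1039.7 and 999 CPM under HFpEF, each HFpEF value between the NC values. Its log2 fold change was -0.01 with an interval of -0.29 to 0.27, from 61995 UMIs. Artery ECs held 1270.1 and 1303 CPM under NC against 1701 and 1343 CPM under HFpEF (0.25, interval -0.08 to 0.59). S100a4 in artery ECs had a log2 fold change of 0.15 (interval -0.55 to 0.84, adjusted p = 0.888 with edgeR) that turned with the NC library left out. Without NC library 2 it was 0.99 with an adjusted p of 0.00106 (1.54% of all genes called), and without NC library 1 it was -0.37. The cluster led by Clu and Cytl1, where S100a4 was high, made up 8.01%, 14.6%, 13.0% and 10.8% of artery ECs in NC libraries 1 and 2 and HFpEF libraries 1 and 2, and the lowest and highest of these libraries were also the lowest and highest in the class level of S100a4. In the other artery ECs both HFpEF libraries (14.8 and 23.3 CPM) lay above both NC libraries (3.89 and 9.87 CPM), a difference that was not tested.

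Acta2 gave no called change either in mural cells, where it is abundant, or in ECs, where it is scarce. The mural log2 fold change was -0.21 (SE 0.16, interval -0.56 to 0.14, adjusted p = 0.713 with edgeR). In capillary ECs it was 0.58 with an interval of -0.54 to 1.71, from 9, 21, 6 and 26 UMIs. The capillary interval is wide, so a change of that size was not detectable at this depth.

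The mural class needs a caution that touches each of its values. Clusters holding 1291 of its 1625 cells carried EC markers, with 837 CPM of Cdh5 and 553 CPM of Pecam1 against 1262 and 703 CPM in capillary ECs, and only 334 cells lay in clusters low in EC markers (68.1 and 51.6 CPM). Among the cells with EC markers 20.8% had Scrublet scores in the range left out as doublets, against 0 of the 334. That range held 11.0% of all ECs and 12.4% of capillary ECs. It took in 3488 of 20882 cells in HFpEF library 2. The counts in NC libraries 1 and 2 and HFpEF library 1 were 406 of 7123, 359 of 6695 and 238 of 5454. The clusters low in EC markers gave a Twist1 change of -0.67 and an Acta2 change of -0.13, both adjusted p = 0.999 with edgeR, and there Snai2 and S100a4 did not pass the filter on low counts. Fn1 was 0.31 in these clusters and -0.18 in those with EC markers. The part of EC transcripts in the mural values was not tested.

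Since cells of the HFpEF libraries were shallower, each cell was thinned to 1000 UMIs before cells with a UMI were counted. This left 6400, 5900, 4183 and 14837 ECs in NC libraries 1 and 2 and HFpEF libraries 1 and 2, and dropped 422, 324, 936 and 5088 shallower ECs. These ECs include those of the clusters held apart from the capillary class, with 827, 638, 1706 and 4752 cells in the same order. The ECs of the diet groups were thus composed differently, and the part of this in the shares was not tested. The 95% intervals of shares are exact (Clopper-Pearson) and reflect counting error alone. Since 2 against 2 libraries cannot give a permutation p below 0.33, shares are given without a test.

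Thinning turned the order of the Snai1 shares. Before thinning, a Snai1 UMI was present in 7.51% and 9.82% of ECs under NC against 4.90% and 7.09% under HFpEF, so NC was higher. At equal depth NC library 1 had 2.11% (interval 1.77 to 2.49), NC library 2 had 2.46% (2.08 to 2.89), HFpEF library 1 had 2.70% (2.23 to 3.24) and HFpEF library 2 had 3.82% (3.52 to 4.14). Only HFpEF library 2 had an interval clear of the other 3 libraries. B cells, which should lack Snai1 and had a median of 3206 UMIs against 2185 in ECs, gave 1 of 129 thinned cells (0.775%), and T cells 2 of 88 (2.27%). These B and T cells carried EC transcripts, and the 54 thinned B cells of the cluster low in EC markers gave 0, with an upper interval bound of 6.60%, so the EC share is not separated from background by these cells alone.

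For Vim and Zeb1 the equal-depth shares of ECs were close between libraries. Vim was detected in 52.7%, 49.2%, 49.7% and 52.6% of ECs and Zeb1 in 10.6%, 10.1%, 10.6% and 10.4%, in the same library order. Zeb1 was also detected in 15.9% of T cells, which express it. Fn1 was detected in 17.6%, 19.4%, 24.3% and 20.7% of artery ECs against 1.24%, 1.18%, 1.65% and 1.92% of capillary ECs. Zeb2 was detected in 14.4%, 19.4%, 20.8% and 18.6% of mural cells. At the low end Twist1 was found in 43, Acta2 in 51 and Cdh2 in 12 of 31320 thinned ECs.

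**Figure D4:**
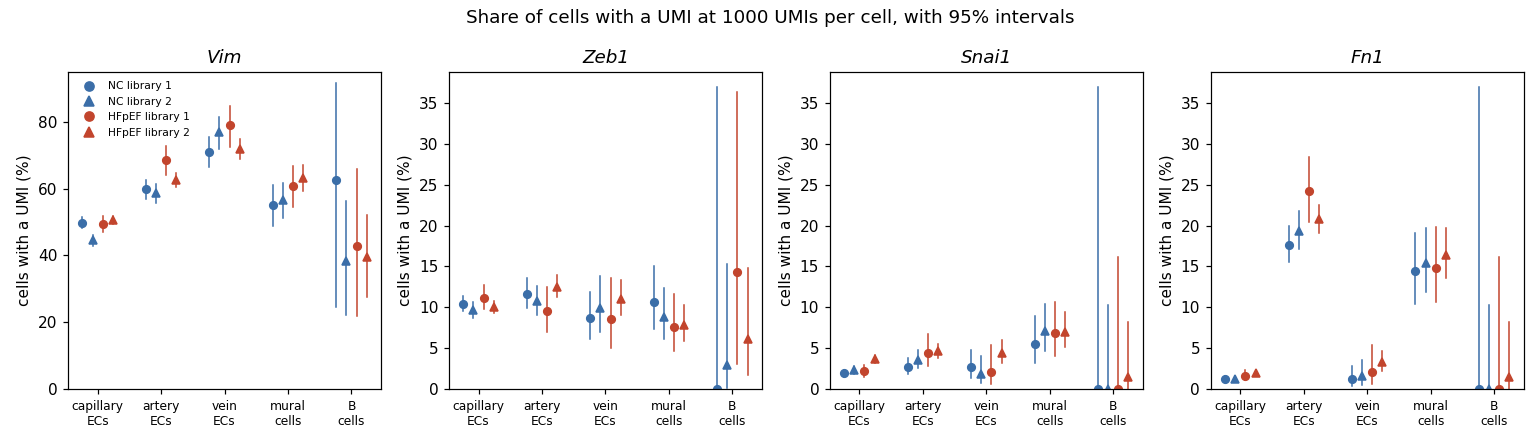
Share of cells with at least 1 UMI of Vim, Zeb1, Snai1 or Fn1 (y axis, percent) in 5 classes (x axis), each cell thinned to 1000 UMIs, with a point per library (blue NC, red HFpEF, circles library 1, triangles library 2) and exact 95% intervals as lines. Vim shares of capillary ECs lie between 44.5% and 50.6%, and the Snai1 share of capillary ECs in HFpEF library 2 (3.63%) lies above the other 3 (1.91% to 2.30%).

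Whether ECs take on myofibroblast features was addressed in the study by staining for an endothelial and a myofibroblast marker together and by lineage tracing. The counts allow only a transcript counterpart of the former, a cell that holds both an EC transcript (Cdh5 or Pecam1) and Acta2. A labelled cell that had lost its EC transcripts would not be counted here. Clusters high in pericyte or smooth muscle markers were placed in the mural class before this count, whether or not they carried EC markers. Cells with EC transcripts and a contractile programme would therefore fall largely in that class, so the EC shares do not measure how rare they are. At 1000 UMIs per cell this was seen in 7 of 6400 ECs in NC library 1 (0.109%, interval 0.0440 to 0.225), in 14 of 5900 in NC library 2 (0.237%, 0.130 to 0.398), in 6 of 4183 in HFpEF library 1 (0.143%, 0.0527 to 0.312) and in 17 of 14837 in HFpEF library 2 (0.115%, 0.0668 to 0.183). The 4 intervals overlapped, and the highest share was in an NC library. Together 44 of 31320 ECs (0.140%) were of this kind.

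B cells, T cells and fibroblasts gave 0 such cells among 129, 88 and 102, with upper interval bounds of 2.82%, 4.11% and 3.55%, all above the share in ECs. All mural cells together gave 16.7%, with 19.5% in the clusters with EC markers and 3.46% in those low in EC markers. Of the 51 ECs with an Acta2 UMI, 23.5% also held a UMI of a mural marker, against 10.7% of all thinned ECs, and the part of doublets or free RNA was not tested beyond leaving out the cells with the highest Scrublet scores.

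**Figure D5:**
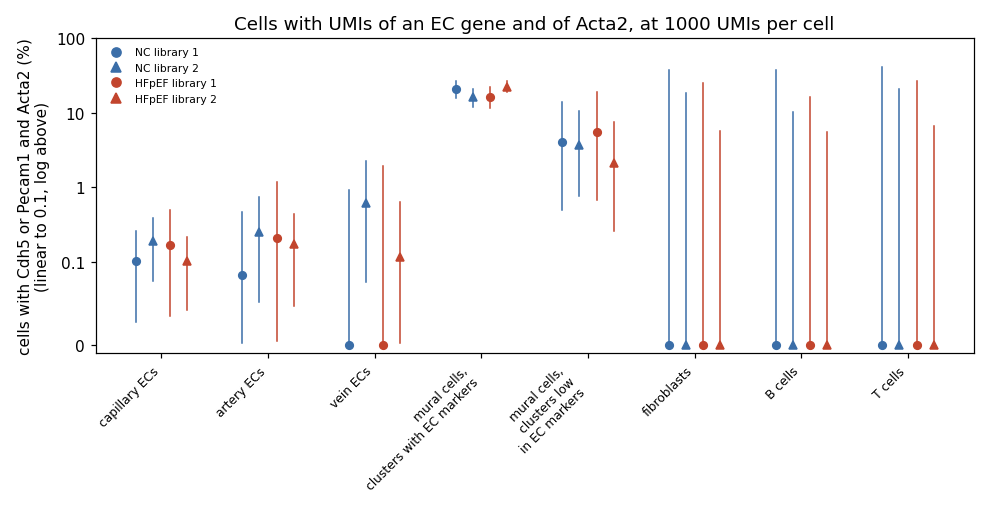
Share of cells with UMIs of Cdh5 or Pecam1 and of Acta2 (y axis, percent, linear up to 0.1 and logarithmic above) in 8 groups of cells (x axis), each cell thinned to 1000 UMIs, with a point per library (blue NC, red HFpEF, circles library 1, triangles library 2) and exact 95% intervals as lines. Capillary ECs lie between 0.103% and 0.191% in each library, and mural clusters with EC markers between 16.0% and 22.3%.

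The 10 genes were also counted together in each cell. The mean number of the 10 genes detected per thinned EC was 0.737 and 0.711 under NC against 0.716 and 0.766 under HFpEF, and in mural cells 1.37 and 1.50 against 1.48 and 1.58. At least 4 of the 10 genes were found in 0.0625% and 0.169% of ECs under NC against 0.143% and 0.128% under HFpEF. Artery ECs were the EC class of the 3 counted with the most such cells, with 0.253% and 0.587% under NC against 0.844% and 0.648% under HFpEF. At least 2 of the 5 transcription factors were found in 0.688% and 0.559% of ECs under NC against 0.789% and 0.856% under HFpEF, or 0.757% of all ECs.

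Genes that surround the programme were read from 3 further lists. Of 15 endothelial identity genes, among them Pecam1, Cdh5, Nos3 and Erg, all were tested in each of the 5 classes and edgeR called 0, with 1, 0, 0, 3 and 0 at an unadjusted p under 0.05, which 18.3%, 13.0%, 11.4%, 7.41% and 10.6% of all genes passed. Their median log2 fold change was -0.03 in capillary ECs, -0.07 in artery ECs, -0.03 in vein ECs, -0.16 in endocardial ECs and -0.01 in mural cells. The junction gene Cldn5, a claudin of tight junctions, had the largest fitted change of the list, at 27.4 and 92.6 CPM under NC against 168 and 174 CPM under HFpEF endocardial ECs (1.42, SE 0.43, adjusted p = 0.308 with edgeR). Tie1, a receptor of the angiopoietin system, had -0.31 in capillary ECs (adjusted p = 0.217).

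Of 21 mesenchymal and myofibroblast genes outside the 10, edgeR tested 11, 10, 6, 11 and 19 in capillary, artery, vein and endocardial ECs and mural cells and called 0, with 3, 0, 1, 3 and 6 at an unadjusted p under 0.05, beside the same shares of all genes. Their medians were 0.04, 0.05, 0.17, 0.00 and 0.06. Endocardial ECs had the largest fitted values, with only 29 cells in HFpEF library 1. Their mean fibroblast marker level, with Pdgfra among the markers, was 2.61 log2 units above the median EC cluster. The part of fibroblast RNA in the endocardial values was not tested. Postn, the matricellular protein periostin, held 280.3 and 112 CPM under NC against 876 and 530.4 CPM under HFpEF (1.73, SE 0.37, adjusted p = 0.0645 with edgeR), and the fibroblast receptor gene Pdgfra held 27.4 and 16.8 CPM under NC against 101 and 73.9 CPM under HFpEF (1.80, SE 0.46, adjusted p = 0.161).

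Of 12 genes of the TGF-β branch, the best known inducer of EnMT in culture, edgeR tested 12, 12, 11, 9 and 11 and called 0, with 3, 1, 2, 1 and 1 at an unadjusted p under 0.05, beside the shares of all genes given for the first list. Their medians were 0.07, -0.03, 0.07, -0.05 and -0.03. Smad7, an inhibitory SMAD, stood at 201 and 216 CPM under NC against 254 and 269 CPM under HFpEF capillary ECs (0.32, adjusted p = 0.178 with edgeR), and at 206 and 211 CPM under NC against 281 and 303 CPM under HFpEF vein ECs (0.51, adjusted p = 0.184). Acvrl1, the endothelial receptor ALK1, had -0.30 in capillary ECs (adjusted p = 0.255) and -0.34 in artery ECs (adjusted p = 0.273).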

How the data were processed

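Per the labels and the study's methods, the authors trimmed reads with fastp, aligned and counted them with Cell Ranger 5.0.1 on mm10, and downsampled reads between samples. The deposited values are UMI counts per gene and cell, not normalized, in 4 libraries. The same cell filter was applied again here. Counts were clustered (2000 variable genes without the 10 members, 10 principal components, resolution 0.8), and classes were named from marker genes with thresholds set on the data. The members, marker genes and lists were chosen with earlier results of these data known. UMI counts were summed per library and class with at least 20 cells in each library and tested with edgeR 4.0.16 in R 4.3.3 (quasi-likelihood, TMM, filterByExpr, Benjamini-Hochberg over all genes tested, called under 0.05). Differences between classes used a class by diet term with the library as a block. All 10 members are named, and of each other list the genes called in a class and the 2 largest changes with a mean of at least 10 CPM in it, of which the text gives a part. For each member the genes of the most similar pattern over classes are named. A few genes these rules select are not reported here. Whether libraries of a group come from separate mice is not stated. The study sequenced both Scarb1 genotypes on each diet, so the 2 libraries of a group may differ in genotype and not be replicates. The p-values therefore measure only the spread between these libraries, which may include a genotype difference. Scrublet (scanpy 1.11.5) called 0, 1, 1 and 0 doublets by its automatic threshold and had not worked, so doublets were kept, and the highest scores, 0.8% per 1000 cells, were left out as an alternative. DESeq2 1.42.0 was another alternative. The test was checked on simulated data.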

Additional observations from a re-analysis of the deposited data

Results flagged for a closer look

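In both genes below the HFpEF effect differed between artery and capillary ECs by edgeR's interaction test, which called 0.26% of all genes. Tgfb2, a TGF-β ligand, stood in capillary ECs at 1.87 and 2.76 CPM under NC against 6.59 and 5.06 CPM under HFpEF, and in artery ECs at 56.2 and 138 CPM under NC against 91.8 and 84.5 CPM under HFpEF. Artery minus capillary was -1.36 on the log2 scale (SE 0.24, adjusted p = 0.0147 with edgeR), and without NC library 2, the library at 138 CPM, it was -0.90 with an adjusted p of 0.464. Smad6, an inhibitory SMAD, stood in capillary ECs at 56.7 and 50.7 CPM under NC against 49.1 and 78.5 CPM under HFpEF, and in artery ECs at 211 and 188 CPM under NC against 138 and 184 CPM under HFpEF. Its difference was -0.59 (SE 0.11, adjusted p = 0.0210 with edgeR). The Smad6 call was lost without NC library 1 (-0.57, adjusted p = 0.155), without NC library 2 (-0.58, adjusted p = 0.179) and without HFpEF library 2 (-0.39, adjusted p = 0.678). Neither gene was called for HFpEF against NC within artery or capillary ECs. Tgfb2 was among the genes leading the larger artery cluster, and capillary cells were divided differently between clusters in the diet groups. The part of these cluster shares in either difference was not tested.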

How the results depend on the processing

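Of 530 alternative fold changes of members, 488 kept their direction and their side of the threshold, 36 turned direction and 6 passed the threshold. Of 130 alternative differences between classes, 113 kept both, 15 turned and 2 passed. With 2 libraries a group, 1 library could make or end a call, and the scarce members (Twist1, Cdh2, and Acta2 and S100a4 outside artery and mural cells) were limited by depth. Over all genes, deviations of equally numbered libraries correlated between -0.08 and 0.04 in the 5 classes, although Scarb1 itself was alike by number (119 and 111 CPM in libraries 1, 48.8 and 50.8 CPM in libraries 2, capillary ECs). The labels state no pairing, and the replicate block gave 118, 86, 78, 0 and 92 called genes in capillary, artery, vein and endocardial ECs and mural cells, with 0 members in each. It changed no other call of a member. The cause of the following changes was not tested, apart from fewer or more genes and cells entering a fit.

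The count of all genes called (1, 28, 69, 7 and 30 in the same class order) became 1021, 318, 219, 58 and 185 with no filter beyond 1 UMI. With sums of thinned cells it was 60, 44, 3, 1 and 4, and with DESeq2 227 in capillary ECs, 25 in vein ECs, 11 in endocardial ECs and 16 in mural cells. In capillary ECs it was 41 without cells at 1% or more hemoglobin UMIs, 72 at a mitochondrial limit of 10%, 266 at resolution 1.2 and 23 in the clusters led by Timp4 and Aqp1. In artery ECs it was 48 without doublets. In endocardial ECs it was 4 with RLE size factors, 4 without doublets, 28 at the limit of 10% and 38 at resolution 1.2. In mural cells it was 2 with a gate on each cell, 2 in clusters low in EC markers and 70 in clusters with EC markers, 2 alternatives chosen after seeing the data, as were the capillary class with the clusters led by other genes and that of the clusters led by Timp4 and Aqp1 alone. Leaving out each library in turn gave 62 to 906 genes in capillary ECs, 14 to 171 in artery ECs, 0 to 247 in vein ECs, 0 to 70 in endocardial ECs and 85 to 160 in mural cells. Against capillary ECs it gave 6 to 164 genes for artery ECs, 0 to 36 for vein ECs and 35 to 150 for mural cells.

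Members called numbered 2 in capillary ECs with no filter, and 0 to 2 there, 0 to 1 in artery ECs, 0 to 1 in endocardial ECs and 0 to 0 in vein ECs and mural cells without 1 library. For differences from capillary ECs they numbered 1 for mural cells with RLE size factors, and 0 to 1 for artery ECs without 1 library. The log2 ratio of HFpEF over NC in the share of ECs was 2.03 for Twist1 thinned to 500 UMIs and 0.14 for Zeb1 thinned to 2000 UMIs. Twist1 was close to the limit of counting in ECs, so its ratio rests on few cells and is not read as a change. For the share of ECs with an EC gene and Acta2, HFpEF minus NC was 0.0219 percentage points when thinned to 500 UMIs. At 1000 UMIs the difference had the opposite sign, the mean of the HFpEF libraries lying below that of the NC libraries.

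Fold changes that turned when 1 library was left out ran from -0.11 to 0.094 for Vim in capillary ECs. In artery ECs they ran from -0.37 to 0.99 for S100a4, -0.15 to 0.0879 for Twist1, -0.21 to 0.18 for Zeb1 and -0.76 to 1.78 for Acta2. In vein ECs they ran from -0.0198 to 0.26 for Snai2, -0.15 to 0.23 for Vim and -0.25 to 0.72 for Snai1, and for Zeb1 in endocardial ECs from -0.0539 to 0.51. In mural cells they ran from -0.0153 to 0.0584 for Snai1, -0.27 to 0.007 for Fn1, -1.23 to 0.0206 for S100a4, -0.0062 to 0.32 for Zeb2, -0.40 to 0.0012 for Zeb1, -0.51 to 0.0277 for Acta2 and -0.88 to 0.17 for Cdh2. Artery minus capillary ran from -0.35 to 0.0589 for Zeb1, -0.049 to 0.38 for Zeb2, -0.31 to 0.0109 for Snai1, -2.64 to 0.37 for S100a4 and -1.30 to 1.07 for Acta2. Vein minus capillary ran from -0.14 to 0.15 for Vim, -1.22 to 1.27 for Twist1, -0.37 to 0.0788 for Snai2, -0.18 to 0.10 for Fn1, -0.21 to 0.31 for Zeb2 and -0.46 to 0.12 for Snai1, and mural minus capillary from -0.72 to 0.16 for Twist1. Other turned values were Vim in capillary ECs without doublets (0.0024) and in the clusters led by Timp4 and Aqp1 (0.0015), Twist1 in capillary ECs (0.0126 at the mitochondrial limit of 10%, 0.0052 at resolution 1.2, 0.25 with the clusters led by other genes), Fn1 in capillary ECs with the gate (-0.02), Vim in vein ECs at resolution 1.2 (-0.0699) and Twist1 in artery ECs with DESeq2 (-0.027). Thinned sums gave 0.12 for Vim in capillary ECs, and in mural cells 0.12 for Fn1, -0.10 for Snai1 and 0.0112 for Acta2. Snai1 in mural cells was -0.11 at the limit of 10% and -0.23 with the gate, and in mural clusters low in EC markers Fn1 was 0.31 and Vim -0.12. The gate could not be run in artery, vein and endocardial ECs, where a library fell under 20 cells. Many cells of these clusters therefore lay in other gated classes or in none, so the gated classes are not those of the clusters.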
